A study of Mus musculus with 10 samples.

Results

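The 10 genes Flt3, Zbtb46, Xcr1, Clec9a, Batf3, Ccr7, Fscn1, Siglech, Irf8 and Wdfy4 are used as markers of dendritic cells, and they were chosen by name. All 10 were found among the 56748 genes of the deposited table. They were measured by bulk RNA sequencing in 10 mouse gastric tumours, 5 of an inflamed type and 5 of a desert type, with 1 library per tumour. The inflamed tumours came from mice of genotype Tff1-CreERT2;Apcfl/fl;Trp53fl/fl, in which a tamoxifen-dependent Cre recombinase driven by Tff1, a gene of gastric surface cells, acts on floxed alleles of the tumour suppressors Apc and Trp53. The desert tumours were orthotopic allografts, that is, tumours grafted into the stomach, labelled wild type. Whether this genotype describes the host or the grafted cells, the age of the mice and the clones used were not stated in the sources used here. The tumour type, the genotype and the way of tumour formation coincided and cannot be told apart. Expression was given as FPKM, a read count scaled by gene length and library size.

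Dendritic cells take up antigen and present it to T cells. They develop from progenitors that carry the receptor tyrosine kinase Flt3. The conventional type 1 cells, which present antigen of dead cells to cytotoxic T cells, need the transcription factors Irf8 and Batf3 and carry the surface receptors Xcr1 and Clec9a. Maturing cells turn on Ccr7 and Fscn1 and move to lymph nodes, and plasmacytoid cells, a source of type I interferon, carry Siglech in the mouse.

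The libraries held 15474313 to 15975770 reads in genes in inflamed tumours and 14148147 to 16951640 in desert tumours. Mitochondrially encoded genes took 2.02% to 3.70% of these reads in inflamed and 1.38% to 1.76% in desert tumours. The gastric gene Gkn1 ranged over 495 to 11752 FPKM in inflamed tumours, whereas the desert tumours reached 3.01 FPKM at most, with 2 of them at 0, so this marker of the labelled tissue was at or near 0 in the desert tumours. The pan-leukocyte gene Ptprc, which encodes CD45, measured 2.86, 2.26, 2.03, 1.17 and 4.24 FPKM in inflamed tumours 1 to 5, against 0.359, 1.03, 0.550, 0.327 and 0.746 FPKM in desert tumours 1 to 5. The groups did not overlap in Ptprc. In these whole-tumour libraries fewer cells of a type and less RNA per cell cannot be told apart.

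The dendritic cell genes went different ways between the tumour types. Irf8 and Wdfy4 were higher in inflamed tumours, Fscn1 and Ccr7 were lower, and Batf3 was not called. Flt3, Zbtb46, Xcr1, Clec9a and Siglech had a mean under 0.5 FPKM over the 10 tumours and fell under the filter for testing. Genes were tested with limma on log2(FPKM + 1), on which changes of low genes come out too small, and called at a Benjamini-Hochberg adjusted p under 0.05 over 16750 genes. Of the 5 dendritic cell genes tested, 2 were called higher and 2 lower. Among all tested genes 31.0% were called higher and 31.2% lower, or 62.2% in either direction, so the counts are near what the whole table gave. The median log2 difference of the 5 was -0.051, against -0.0072 over all tested genes. After rescaling to TPM the median of all tested genes was -0.28, and higher calls were 35.0% of all calls against 49.9% without it. The 2 higher and 2 lower calls among the dendritic cell genes were also made under that scaling.

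**Figure D1:**
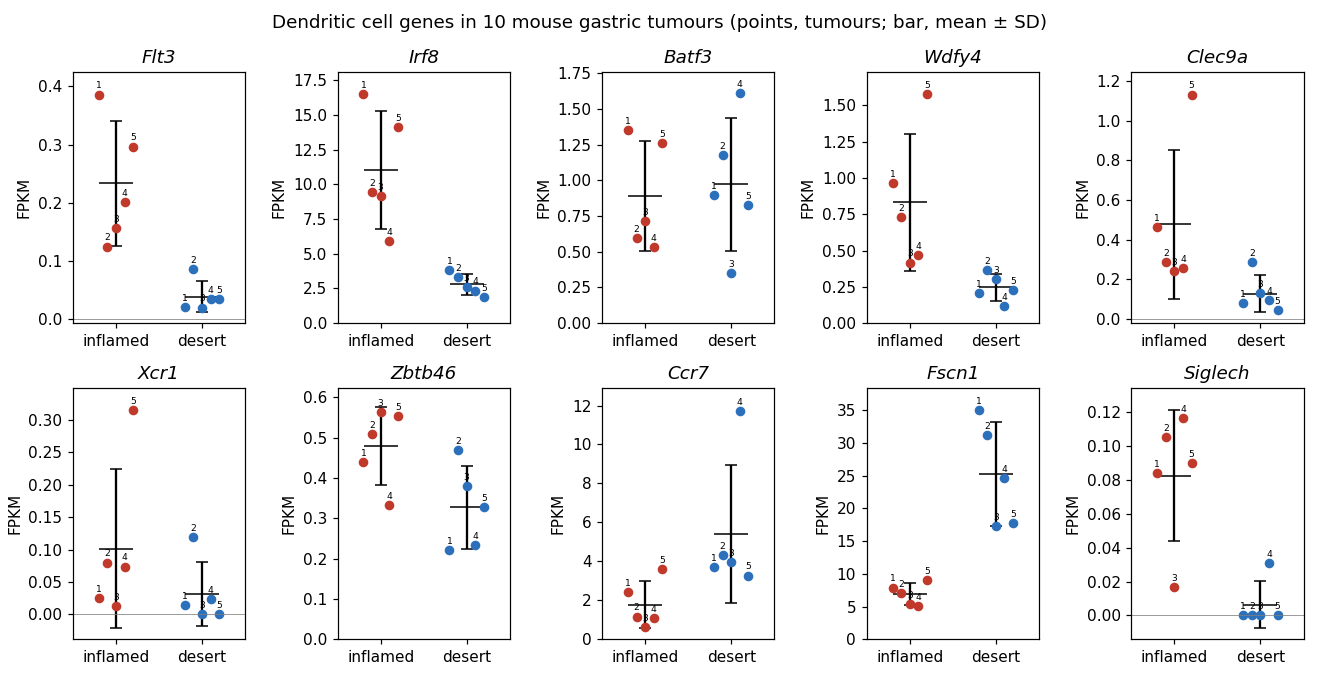
FPKM (vertical axes, linear, a scale per gene) of the 10 dendritic cell genes in 5 inflamed and 5 desert tumours. Points are tumours with their number, and the black bars give the mean ± SD. Irf8, Wdfy4 and Flt3 are higher in every inflamed tumour than in any desert tumour, and Fscn1 is higher in every desert tumour.

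Without the filter, the groups did not overlap in 4 of the 10 genes. Flt3, Irf8 and Wdfy4 were higher in every inflamed tumour than in any desert tumour, and Fscn1 was lower. Over the 34466 genes read in at least 1 library, 15.2% lay wholly higher in inflamed tumours and 13.7% wholly lower. Over the 16750 tested genes the shares were 24.4% wholly higher and 24.4% wholly lower, 48.9% in all. The promoters of these 4 genes are shown because their groups separated, with the transcription start at base 251 of 300, taken from RefSeq on GRCm38.p6. RefSeq promoters matched 9 of the 10 genes, all but Ccr7, and Irf8 has a second start that is not shown. Capitals mark matches on either strand to GAS (TTCNNNGAA, bound by STAT factors), to a PU.1-type ETS motif (GGAAGT) or to the TATA box (TATAAA). An ISRE core (GAAA, 2 bases of any kind, GAAA), an ETS-IRF composite (GGAA, 2 bases of any kind, GAAA) and an AP-1 motif (TGANTCA) were searched too and had no match in these 4 windows. No 2 matches overlap here.
Irf8, chr8:120736108-120736407, plus strand: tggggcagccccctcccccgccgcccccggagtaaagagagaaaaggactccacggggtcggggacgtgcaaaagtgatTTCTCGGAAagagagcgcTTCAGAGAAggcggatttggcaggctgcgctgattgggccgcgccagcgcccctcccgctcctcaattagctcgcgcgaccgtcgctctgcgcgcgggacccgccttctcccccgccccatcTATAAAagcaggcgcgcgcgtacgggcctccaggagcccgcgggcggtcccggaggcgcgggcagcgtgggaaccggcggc
Wdfy4, chr14:33185017-33185316, minus strand: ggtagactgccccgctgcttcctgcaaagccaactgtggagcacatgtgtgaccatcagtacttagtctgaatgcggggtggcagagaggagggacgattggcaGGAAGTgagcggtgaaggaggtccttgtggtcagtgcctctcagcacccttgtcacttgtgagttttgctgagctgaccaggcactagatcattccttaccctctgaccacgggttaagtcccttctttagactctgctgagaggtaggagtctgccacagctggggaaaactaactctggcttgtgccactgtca
Flt3, chr5:147400440-147400739, minus strand: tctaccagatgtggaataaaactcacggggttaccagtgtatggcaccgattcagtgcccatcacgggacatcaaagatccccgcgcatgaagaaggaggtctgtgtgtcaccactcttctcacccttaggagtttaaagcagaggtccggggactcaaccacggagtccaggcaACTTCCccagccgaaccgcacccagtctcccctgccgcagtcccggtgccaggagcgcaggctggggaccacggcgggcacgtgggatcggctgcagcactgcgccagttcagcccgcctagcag
Fscn1, chr5:142960105-142960404, plus strand: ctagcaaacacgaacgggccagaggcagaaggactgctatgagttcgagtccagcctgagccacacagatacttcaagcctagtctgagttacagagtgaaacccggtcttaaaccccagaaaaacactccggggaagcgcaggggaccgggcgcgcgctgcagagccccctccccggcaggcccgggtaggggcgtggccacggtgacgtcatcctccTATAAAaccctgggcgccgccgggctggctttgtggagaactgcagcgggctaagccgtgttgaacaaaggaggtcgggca

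The Irf8 window held 2 GAS matches, whose first bases lie at -171 and -153 from the start, and the ETS motif was matched in the Wdfy4 window at -146 and in the Flt3 window at -75. TATA boxes were matched at -31 in both the Irf8 and the Fscn1 windows. Among 32851 RefSeq promoter windows of this length, 8.30% held a GAS match, 23.8% the ETS motif, 13.6% the TATA letters, 3.44% the ISRE core, 2.72% the ETS-IRF composite and 7.81% the AP-1 motif. Such matches describe letters and not binding.

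Irf8 (ENSMUSG00000041515, chromosome 8, 121463097 to 121483433 in the deposited table, whose build is not certain), a transcription factor of type 1 and plasmacytoid dendritic cells that monocytes, macrophages and B cells also use, was the highest of the 10 genes in inflamed tumours. It measured 16.5, 9.47, 9.16, 5.93 and 14.1 FPKM in inflamed tumours 1 to 5, against 3.82, 3.30, 2.60, 2.35 and 1.88 FPKM in desert tumours 1 to 5. Inflamed tumours 1 and 5 were the highest, and inflamed tumour 4 was the lowest of its group yet above every desert tumour. The mean was 11.04 ± 4.22 FPKM in inflamed tumours, against 2.79 ± 0.770 FPKM in desert tumours (SD, n = 5 each), with a log2 difference of 1.62 (SE 0.24, limma adjusted p = 0.000153). The adjusted p was 3.66e-05 to 0.109 over 22 alternative settings, and the highest belonged to a test of whether the change exceeds 2-fold. Macrophage and B cell markers, which are given further on, were among the genes that differed between the groups, and their part in the Irf8 difference was not tested.

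Wdfy4 (ENSMUSG00000051506, chromosome 14, 32681504 to 32907465), which type 1 dendritic cells need to present antigen of dead cells, followed Irf8 at a lower level. It measured 0.963, 0.731, 0.417, 0.467 and 1.57 FPKM in inflamed tumours 1 to 5, against 0.210, 0.368, 0.306, 0.120 and 0.225 FPKM in desert tumours 1 to 5. The gap between the groups was small, between 0.417 FPKM in inflamed tumour 3 and 0.368 FPKM in desert tumour 2. On the log2 scale it differed by 0.52 (SE 0.17, limma adjusted p = 0.0171). On reads recovered from the FPKM steps, where no pseudocount of 1 FPKM is added, limma voom gave 1.62 (SE 0.44, adjusted p = 0.00682).

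Batf3 (ENSMUSG00000026630, chromosome 1, 190830044 to 190841142), the partner factor of Irf8 in type 1 cells that activated T cells also express, did not separate the groups. It measured 1.35, 0.595, 0.716, 0.535 and 1.26 FPKM in inflamed tumours 1 to 5, against 0.898, 1.18, 0.350, 1.61 and 0.825 FPKM in desert tumours 1 to 5. The groups overlapped over most of their range. The log2 difference was -0.051 (SE 0.19, limma adjusted p = 0.834), and an adjusted p of this size does not show that the levels are equal.

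The surface receptors of type 1 cells were near the limit of detection, so reads are given with them. Clec9a (ENSMUSG00000046080, chromosome 6, 129385825 to 129401726), which senses actin exposed by dead cells, had 27, 16, 14, 13 and 61 reads in inflamed tumours 1 to 5 and 4, 16, 7, 6 and 3 reads in desert tumours 1 to 5. Inflamed tumour 5 was at 1.13 FPKM and desert tumour 2, at 0.286 FPKM, reached into the inflamed range. The sums were 131 reads in inflamed and 36 reads in desert tumours, an inflamed over desert ratio per read sequenced of 3.59 (95% exact interval 2.46 to 5.34, counting error only). Clec9a was not called by limma without a filter (0.36, SE 0.15, adjusted p = 0.0837), whereas limma voom on the recovered reads called it (1.75, SE 0.57, adjusted p = 0.0179).

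Xcr1 (ENSMUSG00000060509, chromosome 9, 123681380 to 123691094), the receptor for the chemokine Xcl1, had 2, 6, 1, 5 and 23 reads in inflamed tumours 1 to 5 and 1, 9, 0, 2 and 0 reads in desert tumours 1 to 5. Most inflamed reads came from tumour 5 and most desert reads from tumour 2, and the groups overlapped. Without inflamed tumour 5 the inflamed mean fell to 0.0480 FPKM, against 0.102 FPKM with it and 0.0314 FPKM in desert tumours. The sums were 37 reads in inflamed and 12 reads in desert tumours, a ratio of 3.04 (95% exact interval 1.55 to 6.40, counting error only). Xcr1 was not called by limma without a filter (0.089, SE 0.069, adjusted p = 0.363), which takes in the spread between tumours. Its ligand gene Xcl1 had 28 reads in inflamed and 6 in desert tumours, again most in inflamed tumour 5 (15 reads) and desert tumour 2 (4 reads).

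Flt3 (ENSMUSG00000042817, chromosome 5, 147267551 to 147337299), the receptor that early dendritic cell precursors and haematopoietic progenitors depend on, had 42, 13, 17, 19 and 30 reads in inflamed tumours 1 to 5 and 2, 9, 2, 4 and 4 reads in desert tumours 1 to 5. All inflamed tumours lay above all desert tumours in FPKM, with 0.125 to 0.386 in inflamed tumours, against 0.0201 to 0.0858 in desert tumours. The read ratio of inflamed over desert was 5.68 (95% exact interval 3.55 to 9.51, counting error only). Limma without a filter gave 0.24 (SE 0.063, adjusted p = 0.0116) and voom 2.43 (SE 0.48, adjusted p = 0.00101). Of the genes in those fits, 18.1% without a filter and 30.0% in voom were called higher, and 16.7% and 33.3% lower.

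The ligand gene Flt3l, whose product drives dendritic cell growth, measured 1.16, 0.826, 1.30, 1.85 and 1.40 FPKM in inflamed tumours 1 to 5, against 1.29, 0.895, 1.33, 1.11 and 1.36 FPKM in desert tumours 1 to 5. The groups overlapped, and inflamed tumours 4 and 5 were above all desert tumours. The difference was 0.059 (SE 0.13, limma adjusted p = 0.716), and its sign turned after rescaling to TPM (-0.17), under quantile normalization, with array quality weights and without inflamed tumour 4.

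Zbtb46 (ENSMUSG00000027583, chromosome 2, 181029555 to 181101219), a factor of conventional dendritic cells that endothelial cells also express, measured 0.440, 0.509, 0.565, 0.332 and 0.553 FPKM in inflamed tumours 1 to 5, against 0.222, 0.470, 0.380, 0.235 and 0.328 FPKM in desert tumours 1 to 5. The groups overlapped, with desert tumour 2 above inflamed tumours 1 and 4 and desert tumour 3 above inflamed tumour 4. Limma without a filter gave 0.16 (SE 0.085, adjusted p = 0.190). Of 7 tested endothelial markers 3 were higher and 0 lower in inflamed tumours, beside 31.0% and 31.2% of all tested genes. Without inflamed tumour 4, 5 were higher. The summed level of that list was 17.3 to 47.5 FPKM in inflamed tumours, against 16.0 to 22.6 FPKM in desert tumours, and its part in the Zbtb46 values was not tested. The endothelial receptor gene Tek was at 3.94 ± 0.891 FPKM in inflamed tumours, against 1.06 ± 0.392 FPKM in desert ones, and Pecam1 at 9.80 ± 3.79 FPKM in inflamed tumours, against 3.57 ± 0.505 FPKM in desert ones (SD, n = 5 each).

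Siglech (ENSMUSG00000051504, chromosome 7, 55417926 to 55428673), a surface lectin of mouse plasmacytoid cells, had 5, 6, 1, 6 and 5 reads in inflamed tumours 1 to 5. Desert tumour 4 had 2 reads and the other desert tumours had 0, where a count of 0 allows up to 3 reads, or 0.0467 to 0.0578 FPKM. The groups overlapped through the single read of inflamed tumour 3. The ratio of inflamed over desert was 11.3 (95% exact interval 2.80 to 99.2, counting error only). Limma without a filter gave 0.10 (SE 0.027, adjusted p = 0.0107), a value that rests on 25 reads in all.

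Fscn1 and Ccr7 mark maturing dendritic cells and were lower in inflamed tumours. Fscn1 (ENSMUSG00000029581, chromosome 5, 142946098 to 142958940), an actin bundling protein that many tumour cells also express, measured 7.92, 7.07, 5.41, 5.04 and 9.09 FPKM in inflamed tumours 1 to 5, against 35.0, 31.2, 17.3, 24.6 and 17.7 FPKM in desert tumours 1 to 5. Every inflamed tumour was below every desert tumour. On the log2 scale it differed by -1.70 (SE 0.22, limma adjusted p = 5.08e-05), and it was called in all 22 alternatives, with adjusted p from 1.25e-05 to 0.0394.

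Ccr7 (ENSMUSG00000037944, chromosome 11, 99035022 to 99045903), the chemokine receptor that guides cells to lymph nodes and that naive T cells also carry, measured 2.41, 1.17, 0.636, 1.10 and 3.61 FPKM in inflamed tumours 1 to 5, against 3.72, 4.34, 3.99, 11.7 and 3.28 FPKM in desert tumours 1 to 5. Desert tumour 4 stood far above the rest, and inflamed tumour 5 was above desert tumour 5. The log2 difference was -1.17 (SE 0.34, limma adjusted p = 0.0118), and it was -0.89 (adjusted p = 0.0177) without desert tumour 4. Adjusted p ran from 0.00374 to 1 over 21 alternatives, the highest in the test for a change above 2-fold. After rescaling to TPM and in voom the difference was -1.76.

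The listed T, B and plasma cell markers that passed the filter went the other way from Ccr7. Zap70, a T cell gene outside these lists, went the same way as Ccr7 (log2 difference -1.75, limma adjusted p = 0.000125). The part of such cells in the Ccr7 values was not tested. Over all tested genes 31.0% were called higher. All 8 tested genes of the T and NK cell list were higher in inflamed tumours. The 2 under the filter were the NK cell genes Ncr1 and Klrb1c, so no gene particular to NK cells was tested. Ncr1 had 9 reads in inflamed and 4 in desert tumours, whereas Klrb1c had 9 in inflamed and 21 in desert tumours. The list of 10 summed to 12.8 to 38.8 FPKM in inflamed tumours, against 1.04 to 2.24 FPKM in desert tumours. The T cell receptor gene Trbc2 was at 7.77 ± 3.76 FPKM in inflamed tumours, against 0.149 ± 0.110 FPKM in desert tumours (SD, n = 5 each). All 3 tested B and plasma cell markers were higher in inflamed tumours, led by Jchain at 140 ± 56.8 FPKM in inflamed tumours, against 0.0402 ± 0.0401 FPKM in desert ones (SD, n = 5 each). The list of 8 summed to 74.2 to 215 FPKM in inflamed tumours, against 0.734 to 1.28 FPKM in desert tumours. The B cell gene Ms4a1 was at 0 in all 5 desert tumours and had only 16 reads in the inflamed ones. Of the 5 genes of this list under the filter, only Cd22 had fewer reads in inflamed tumours, 109 against 126 in desert tumours.

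Among other genes of mature dendritic cells, 15 of a list of 20 were tested. Of these 10 were higher in inflamed tumours, 2 lower and 3 not called, beside 31.0% higher and 31.2% lower over all tested genes. The median log2 difference was 0.87. The summed level of the list went the other way, with 145.8 to 207.6 FPKM in inflamed tumours, against 232.5 to 251.5 FPKM in desert tumours. Marcksl1 and Tmem123, the most abundant genes of the list, were both lower in inflamed tumours and hold much of this sum. Tmem123 was at 50.1 ± 4.41 FPKM in inflamed tumours, against 82.7 ± 10.7 FPKM in desert tumours (SD, n = 5 each). Ccl22, a chemokine of mature cells, was at 1.48 ± 1.13 FPKM in inflamed tumours, against 0.165 ± 0.134 FPKM in desert tumours (log2 difference 0.998, SE 0.24, limma adjusted p = 0.00397). The costimulatory gene Cd86 was at 1.68 ± 0.943 FPKM in inflamed tumours, against 0.281 ± 0.0915 FPKM in desert tumours, and Cd274, the inhibitory ligand PD-L1, at 8.09 ± 5.13 FPKM in inflamed tumours, against 0.932 ± 0.325 FPKM in desert ones (SD, n = 5 each). The cytokine signalling inhibitor Socs2 had the largest rise on log2(FPKM + 1), 2.35 (limma adjusted p = 4.91e-08), whereas in voom Apol7c had a larger one (5.25, against 3.04 for Socs2). Marcksl1 and Tmem123 fell by 1.08 and 0.71 on the log2 scale, as Fscn1 and Ccr7 did, and Marcksl1 was the most abundant gene of the list at 62.7 ± 10.6 FPKM in inflamed tumours, against 133 ± 14.0 FPKM in desert tumours (SD, n = 5 each). Il12b, a subunit of interleukin 12, had 21 reads in inflamed and 3 in desert tumours. It was at 0 in 2 inflamed and 3 desert tumours and was not called by limma without a filter (adjusted p = 0.159). Of the 5 genes of this list under the filter, only Il4i1 had fewer reads in inflamed tumours, 15 against 29 in desert tumours.

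**Figure D2:**
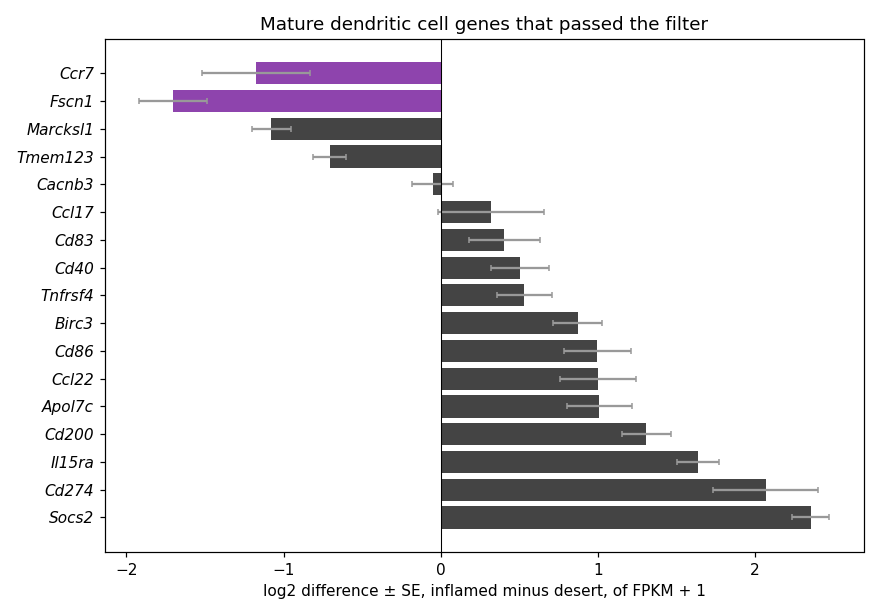
Log2 difference of FPKM + 1, inflamed minus desert tumours (horizontal axis, bars with SE from limma, n = 5 each), of Ccr7 and Fscn1 (purple) and of 15 other mature dendritic cell genes that passed the filter (dark grey). Ccr7, at -1.17, and Fscn1, at -1.70, point to the desert side with Marcksl1 and Tmem123, and Socs2 reaches 2.35 on the inflamed side.

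Levels were also set against Ptprc, as a description without a test. The ratio of Irf8 to Ptprc had a median of 4.51 in inflamed tumours, with a range of 3.32 to 5.78, and of 4.73 in desert tumours, with a range of 2.53 to 10.6. For Wdfy4 the medians were 0.337 in inflamed and 0.365 in desert tumours, and for Flt3 0.0776 in inflamed and 0.0587 in desert tumours, with overlapping ranges. The ratio of Fscn1 was 2.14 to 4.29 in inflamed tumours, against 23.8 to 97.5 in desert tumours. Ccr7 was at 0.313 to 0.934 times Ptprc in inflamed and 4.22 to 35.8 times in desert tumours. Zbtb46 and Batf3 also lay wholly lower in inflamed tumours on this ratio, for Batf3 at 0.264 to 0.473 in inflamed tumours, against 0.637 to 4.93 in desert tumours. Ptprc itself was higher in inflamed tumours, and 52.2% of all tested genes lay wholly lower there on this ratio and 4.58% wholly higher. Of the 5 dendritic cell genes tested, Batf3, Ccr7 and Fscn1 lay wholly lower on it, and Zbtb46 was under the filter.

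**Figure D3:**
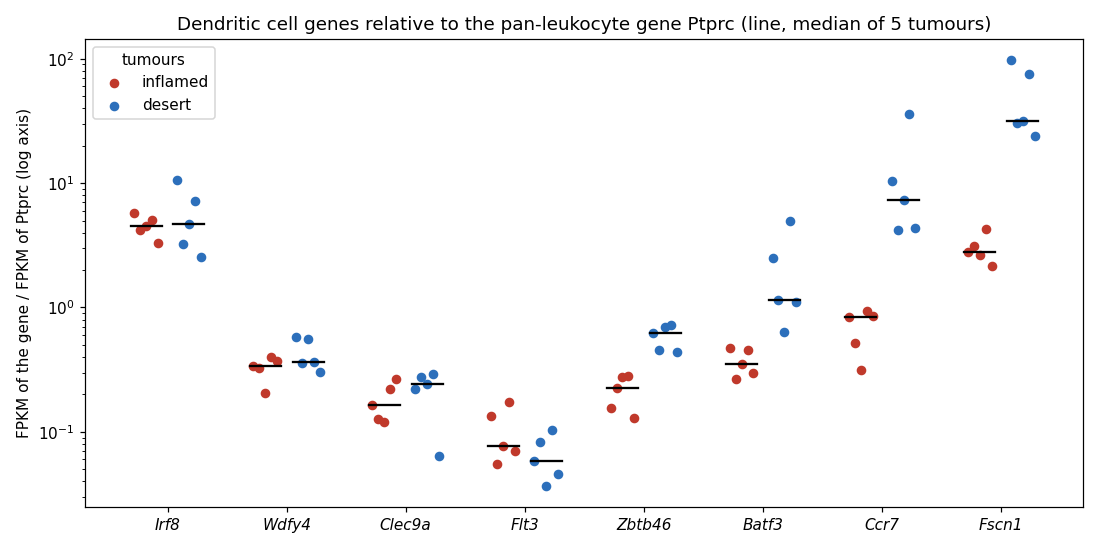
FPKM of 8 dendritic cell genes divided by FPKM of Ptprc in the same tumour (vertical axis, log scale), with inflamed tumours left of desert tumours. Points are tumours and lines are medians of 5. Irf8, Wdfy4, Clec9a and Flt3 overlap between the groups, whereas Zbtb46, Batf3, Ccr7 and Fscn1 do not.

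Of 16 tested genes that direct dendritic cell development, in a list of 17, 7 were higher, 1 was lower and 8 were not called, with a median of 0.31. Over all tested genes 31.0% were higher and 31.2% lower. Spi1, which encodes PU.1, was at 4.11 ± 1.73 FPKM in inflamed tumours, against 1.21 ± 0.519 FPKM in desert tumours, and Irf4, a factor of type 2 and mature cells, at 1.33 ± 0.572 FPKM in inflamed tumours, against 0.183 ± 0.0741 FPKM in desert ones (SD, n = 5 each). The part of other cell types in the Spi1 and Irf4 values was not tested. Klf4, which gastric epithelium also expresses, had the highest level and, on log2(FPKM + 1), the largest rise (2.09, SE 0.44, limma adjusted p = 0.00163). In voom, which adds no pseudocount of 1 FPKM, Runx2 had a larger one (4.47, against 2.08 for Klf4). Csf2rb, the shared receptor chain for GM-CSF, rose by 1.41 on the log2 scale. The plasmacytoid factor Tcf4, which other tissues express widely, was lower at 4.41 ± 0.213 FPKM in inflamed tumours, against 13.6 ± 1.504 FPKM in desert tumours (SD, n = 5 each). The count of lower genes was 4 after rescaling to TPM, under quantile normalization and in voom, and 2 when any 1 of inflamed tumours 1, 4 and 5 or desert tumours 3 and 5 was left out, and 2 with array quality weights.

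Further genes of type 1 cells split. Of 9 tested genes, 5 were higher and 2 lower, beside 31.0% and 31.2% of all tested genes, with a median of 0.59. The nucleic acid sensor Tlr3 was at 8.59 ± 2.56 FPKM in inflamed tumours, against 4.74 ± 1.08 FPKM in desert tumours (SD, n = 5 each). The profilin sensor Tlr12 had the largest rise (0.99, limma adjusted p = 0.00138), and the lysosomal thioesterase Ppt1 the highest mean of the genes that rose, 21.2 ± 2.34 FPKM in inflamed tumours, against 13.3 ± 1.47 FPKM in desert tumours (SD, n = 5 each). The adhesion gene Cadm1 was lower, at 5.88 ± 1.32 FPKM in inflamed tumours, against 28.3 ± 6.79 FPKM in desert tumours, as was Snx22, at 0.838 ± 0.221 FPKM in inflamed tumours, against 10.7 ± 5.31 FPKM in desert ones (SD, n = 5 each). Epithelial cells also express Cadm1. The list of 12 found genes summed to 48.6 to 69.5 FPKM in inflamed tumours, against 60.4 to 73.6 FPKM in desert tumours.

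Of 11 tested genes of type 2 cells, 5 were higher and 1 was lower, beside 31.0% and 31.2% of all tested genes. The median was 0.86. Itgax, which encodes CD11c, was at 4.72 ± 3.13 FPKM in inflamed tumours, against 0.792 ± 0.400 FPKM in desert tumours, and the class II accessory gene H2-DMb2 at 9.33 ± 8.90 FPKM in inflamed tumours, against 0.205 ± 0.148 FPKM in desert ones (SD, n = 5 each). Notch2, a receptor with wide expression, fell by 1.10 on the log2 scale. Sirpa, the most abundant gene of the list, was at 9.80 ± 3.37 FPKM in inflamed tumours, against 15.2 ± 5.53 FPKM in desert tumours (SD, n = 5 each) and was not called (limma adjusted p = 0.1004), but it was called lower after rescaling to TPM (adjusted p = 0.0331), when inflamed tumour 1 was left out (adjusted p = 0.0461) and when desert tumour 2 was (adjusted p = 0.0292). The defining lectin Cd209a had 10 reads in inflamed and 8 in desert tumours. Clec4a4 was at 0 in all 10 tumours, and the Langerhans cell gene Cd207 had 1 read in all.

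Of 13 tested genes linked to plasmacytoid cells, 6 were higher and 2 lower, beside 31.0% and 31.2% of all tested genes. The median was 0.52. The largest rise on log2(FPKM + 1) was that of Ly6d (6.12, SE 0.60, limma adjusted p = 7.91e-06), which squamous epithelium and B cell precursors also express. In voom Klk1 had a larger one (6.89, against 6.58 for Ly6d). Irf7, which interferon induces in many cells, was at 33.6 ± 15.4 FPKM in inflamed tumours, against 5.47 ± 4.73 FPKM in desert tumours, and Atp1b1, a sodium pump subunit abundant in epithelium, at 265 ± 16.8 FPKM in inflamed tumours, against 105 ± 12.97 FPKM in desert ones (SD, n = 5 each). Pacsin1 fell by 1.20 on the log2 scale. Reads of Siglech, the marker with the narrowest use, stayed at 6 or fewer per tumour.

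Signals that attract dendritic cells or prime T cells were mostly higher, 8 of 10 tested genes with 0 lower. Over all tested genes the shares were 31.0% and 31.2%. The median of the list was 1.34. Cxcl9, a chemokine that type 1 cells and macrophages make, was at 28.1 ± 17.1 FPKM in inflamed tumours, against 1.16 ± 0.841 FPKM in desert tumours (SD, n = 5 each). After rescaling to TPM or quantile normalization 1 gene of this list was lower. The Ccr7 ligand gene Ccl19 had 3 reads in inflamed and 1 in desert tumours. Ccl21a, another Ccr7 ligand gene, had 92 reads in inflamed and 36 in desert tumours and was not called (limma adjusted p = 0.220). Its reads were 7, 20, 37, 28 and 0 in inflamed tumours 1 to 5, and 0, 9, 27, 0 and 0 in desert tumours 1 to 5. The list summed to 25.4 to 108 FPKM in inflamed tumours, against 3.85 to 12.6 FPKM in desert tumours. Ccr6 was at 0 in all desert tumours and in 1 inflamed tumour, with only 11 reads over the inflamed tumours.

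All 5 pan-leukocyte genes were higher in inflamed tumours, beside 31.0% of all tested genes, with a median of 1.09. Their summed level was 20.6 to 61.8 FPKM in inflamed tumours, against 6.23 to 16.2 FPKM in desert tumours. Coro1a had the largest rise (2.36, limma adjusted p = 7.62e-05), and Laptm5, at 13.1 ± 5.21 FPKM in inflamed tumours, against 5.87 ± 2.11 FPKM in desert tumours (SD, n = 5 each), the highest mean, though it missed the threshold on TPM (adjusted p = 0.05201). Of 11 macrophage and monocyte markers 4 were higher and 0 lower, beside 31.0% and 31.2% of all tested genes. Without inflamed tumour 4, 9 were higher. The monocyte gene Ly6c2 was at 1.52 ± 0.738 FPKM in inflamed tumours, against 0.0418 ± 0.0258 FPKM in desert ones, and the macrophage gene C1qa, at 51.3 ± 26.8 FPKM in inflamed tumours, against 29.8 ± 10.1 FPKM in desert ones (SD, n = 5 each), was not called (limma adjusted p = 0.154). It was called when inflamed tumour 4 was left out (adjusted p = 0.0227). This list summed to 57.2 to 238 FPKM in inflamed tumours, against 51.9 to 125 FPKM in desert tumours.

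**Figure D4:**
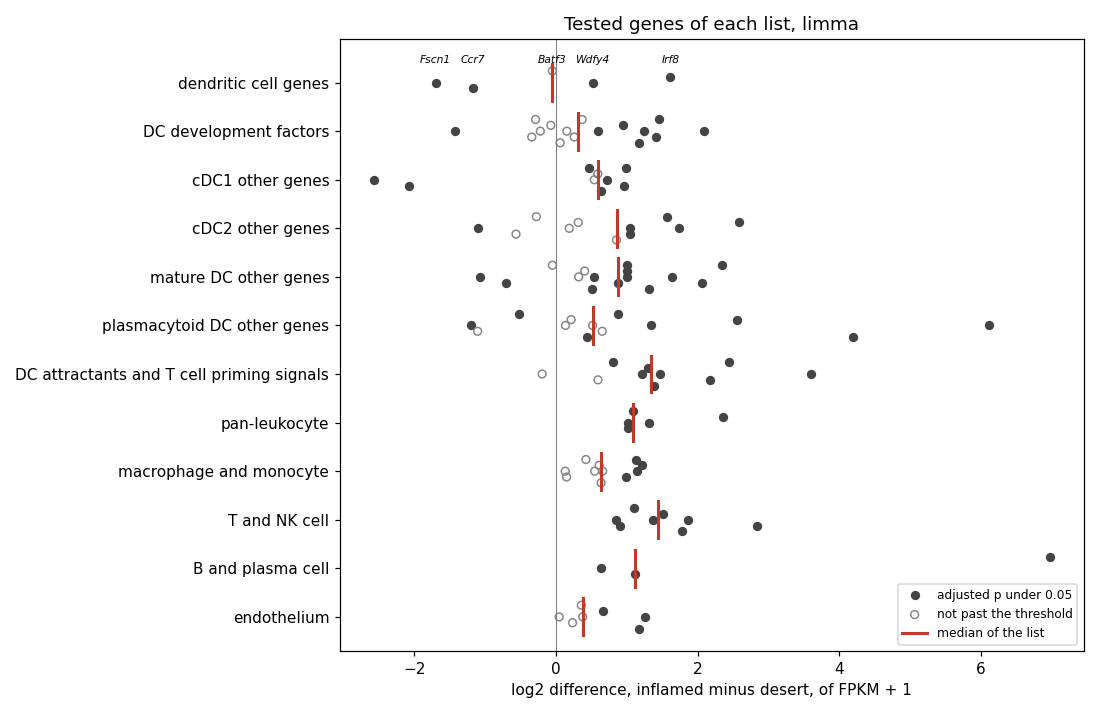
Log2 difference of FPKM + 1, inflamed minus desert tumours (horizontal axis), of the tested genes of 12 lists, with filled points past an adjusted p of 0.05 in limma and open points not past it. Red lines are list medians. The dendritic cell genes have a median of -0.051, and the T and NK cell list one of 1.44.

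The genes closest in pattern were found by the mean absolute difference between centred log2(FPKM + 1) values over the 10 tumours, among 12044 genes with a mean of at least 2 FPKM. For Irf8 these were Gimap4 (0.11), a lymphocyte GTPase, Cx3cr1 (0.15), a chemokine receptor of monocytes and macrophages, and Eif4e3 (0.15). For Fscn1 they were Arhgef26 (0.13), Aaas (0.14) and Pabpc1 (0.15). For Ccr7 the distances were larger, to H1f10 (0.24), Ifitm1 (0.27) and Zap70 (0.29), the T cell receptor kinase. Zap70 was at 2.79 ± 0.990 FPKM in inflamed tumours, against 12.1 ± 5.40 FPKM in desert tumours (SD, n = 5 each), with 1230 reads in desert tumour 4 and 473 to 510 in the other desert tumours.

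Within the groups a few tumours led. Inflamed tumour 5 was the highest of its group in 5 of the 10 genes (Xcr1, Clec9a, Ccr7, Fscn1 and Wdfy4) and in Ptprc. Desert tumour 2 was the highest of its group in 5 of the 10 (Flt3, Zbtb46, Xcr1, Clec9a and Wdfy4) and also in Ptprc. Inflamed tumour 1 led in Flt3, Batf3 and Irf8. Desert tumour 4 led in Batf3, Ccr7 and Siglech while its Ptprc was the lowest of all 10 tumours.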

How the data were processed

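The authors deposited FPKM values, per the labels and the table itself, for 10 libraries with gene lengths in bases. The submitters' processing notes name genome build mm10, yet only 1537 of 52125 shared gene IDs had the start given by GENCODE M21, so the table's coordinates carry no build. Aligner, counter and strandedness are not given in the sources used here. Without known strandedness, antisense and overlapping genes cannot be separated. No batch or date is given, and the protocol text speaks of fewer tumours than the 10 used. FPKM times gene length gave whole multiples of 1 step per library (100% of values above 0 within 0.01 of a whole number), and these are the reads quoted.

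Genes with a mean of at least 0.5 FPKM were tested in R 4.3.3 by limma 3.58.1, tables being read by the package data.table in version 1.17.8 (log2(FPKM + 1), intensity trend, robust moderation, two-sided, inflamed minus desert, group as the only term). Genes under the filter were read from the same fit without a filter. The tests were tried first on simulated data, with few changed genes and the same spread setting for every gene. As 62.2% of the tested genes were called here, that trial cannot vouch for the calls. Nothing says that tumours of 1 group came from separate litters or hosts, so p-values measure the spread between these samples. Alternatives covered pseudocounts of 0.1 and 0.01, filters of none and of a mean of 5 FPKM, scaling to TPM, by median of ratios and by quantiles, moderation without trend or robustness, a floor of 2-fold, quality weights per array, a block for the tumour number, each library left out, and voom on genes with a mean of at least 10 reads.

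Genes named beside the 10 were Ptprc, Flt3l, Xcl1, per list the largest rise and fall on log2(FPKM + 1), the highest mean and markers at 0 in a group, and the 3 nearest patterns. Outside that rule, Cd86, Cd274, Tmem123, Spi1, Irf4, Csf2rb, Cadm1, Tlr3, Itgax, Irf7, Il12b, Ccl19, Ccl21a, Ccl22, Cd209a, Klrb1c, Runx2, Apol7c, Klk1, Gkn1, Kit and Mpo were picked with their values known. Ncr1, Cd22 and Il4i1 were picked in the same way. The 13 other lists held 150 genes, of which 148 were found. The members and lists were chosen with earlier results of these data known. Read ratios are reads over total reads in genes, with Clopper-Pearson intervals on the split of reads.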

Additional observations from a re-analysis of the deposited data

Results flagged for a closer look

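In each group of 5 tumours, the gap of the highest or lowest tumour to its neighbour was divided by the range. A gap above 0.71 was found in 6 of 20 gene and group pairs. That cutoff gives about 1 in 20 only for normally distributed values. Several of these genes have few reads and the pairs share tumours, so the 6 cannot be set against that rate. Inflamed tumour 5 stood apart in Xcr1 (0.316 FPKM, against 0.0128 to 0.0800 FPKM in the other inflamed tumours) and in Clec9a (1.13 FPKM, against 0.243 to 0.466 FPKM). Desert tumour 2 stood apart in Flt3 (0.0858 FPKM, against 0.0201 to 0.0341 FPKM in the other desert tumours) and in Xcr1 (0.119 FPKM, against 0 to 0.0236 FPKM). Desert tumour 4 stood apart in Ccr7 (11.7 FPKM, against 3.28 to 4.34 FPKM) and in Siglech (0.0311 FPKM, from 2 reads, against 0 in the other desert tumours). Without these tumours the mean was 0.0480 FPKM for Xcr1 and 0.314 FPKM for Clec9a in inflamed tumours. In desert tumours it was 0.0274 FPKM for Flt3, 0.00956 FPKM for Xcr1 and 3.83 FPKM for Ccr7.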

How the results depend on the processing

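The calls of Irf8, Wdfy4, Fscn1 and Ccr7 held in every alternative that tested them except the fold change floor of 2, where only Fscn1 was called. Of the 5 dendritic cell genes tested, that floor left 0 higher and 1 lower, and 1137 and 643 of all genes. A mean of at least 5 FPKM left only Irf8 and Fscn1 of the 10 tested. With it 1 was called higher and 1 lower, beside 2784 and 3070 of the 8466 genes tested. With no filter 4 of the 10 were higher, the added calls being Flt3 and Siglech, beside 18.1% of all genes in that fit. Voom, which did not test Xcr1 and Siglech, also gave 4 higher, the added calls being Flt3 and Clec9a, beside 30.0% of its genes. Batf3 was not called anywhere, and its sign turned with array quality weights (0.012) and over the libraries left out (-0.18 to 0.059). Flt3l was not called either and turned after rescaling to TPM (-0.17), under quantile normalization (-0.0945), with array quality weights (-0.029) and over the libraries left out (-0.021 to 0.14). The cause was not tested. Leaving out 1 library left 2 higher and 2 lower of the 5 dendritic cell genes tested each time. Over all tested genes 4893 to 5165 were then higher and 4929 to 5146 lower. Deviations of tumours with the same number correlated at -0.074 to 0.076. These low values cannot exclude that the numbers pair tumours, and the labels do not say whether they do. The replicate block gave 4958 genes higher and 4967 lower with the same 2 and 2 counts. Under 10 reads per tumour, as for Xcr1 and Siglech in most tumours, counting error leaves the size of a difference wide, as their intervals show.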

Other observations

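Of 4 tested stem and progenitor markers 3 were higher in inflamed tumours and 0 lower, beside 31.0% and 31.2% of all tested genes. This class includes cells carrying Flt3. Mpo of the same list was under the filter and went the other way, with 16 reads in inflamed and 39 in desert tumours. Ly6a, which encodes Sca-1 and which interferon also induces, was at 188 ± 101 FPKM in inflamed tumours, against 3.90 ± 1.66 FPKM in desert tumours, and the stem cell factor receptor gene Kit, which mast cells and interstitial cells also carry, at 3.61 ± 0.827 FPKM in inflamed tumours, against 1.28 ± 0.792 FPKM in desert ones (SD, n = 5 each). Of 8 stromal and epithelial genes 4 were higher and 0 lower, beside the same 31.0% and 31.2%. Under quantile normalization 1 was lower, and 7 were higher with array quality weights. The matrix proteoglycan Dcn was at 36.6 ± 13.3 FPKM in inflamed tumours, against 6.79 ± 3.95 FPKM in desert tumours, and the keratin Krt8 at 1543 ± 633 FPKM in inflamed tumours, against 510 ± 46.6 FPKM in desert ones (SD, n = 5 each).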
